A study of Mus musculus with 14 samples.

Results

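Integrins, and the cytoplasmic proteins of focal adhesions that join them to actin, were followed through the first days of hepatic stellate cell (HSC) culture. The set is a list of gene symbols drawn up with earlier results of these data known, and its rule uses no measured value. It lists 46 genes, 20 integrin subunits and 26 cytoplasmic adhesion proteins, of 19938 genes with a probe set of their own on the array. Of the 46, 45 were measured. No probe set carried Ptk2, focal adhesion kinase, as its only symbol, and this gene was not analysed here.

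Primary HSCs from livers of healthy BalbC mice (Balb/cByJ in the study's methods) were cultured in DMEM with serum, and their total RNA was hybridised to Affymetrix mouse whole-transcript gene arrays. Unattached cells were washed off shortly after seeding, and that moment counts as time 0. Cells given valproic acid (VPA, an inhibitor of histone deacetylases) at 2.5 mM from time 0 form the groups VPA4h (collected at 4 h) and VPA64h (64 h), with 3 arrays each. Cells without VPA form Ctrl4h (3 arrays), Ctrl16h (2 arrays, 16 h) and Ctrl64h (3 arrays). The labels name no genetic change and give neither age nor sex, and culture itself activates HSCs, so no group stands for quiescent HSCs in liver tissue. The study's methods describe the arrays of a group as independent biological replicates.

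Integrins are pairs of 1 α and 1 β subunit that span the cell membrane and bind matrix proteins outside the cell. The α subunit largely sets the ligand, which may be collagen, laminin or a protein with the RGD motif such as fibronectin. Inside the cell, talin and kindlin bind the β tail, and the complex of integrin-linked kinase, PINCH and parvin, the scaffold paxillin and actin linkers such as vinculin, α-actinin and filamin assemble on it. Quiescent HSCs sit in the space of Disse on a sparse basement membrane-like matrix, and on a stiff surface they spread, form focal adhesions and gain actin stress fibres.

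Values are log2 expression after RMA, so a difference of 1 is 2-fold and a change is one against the rest of the array. Array medians were 6.34 to 6.41, and arrays of a group correlated at 0.993 to 0.995. The mean over 15 HSC markers lay between 9.37 and 10.08 on the 14 arrays, and desmin, an intermediate filament protein of HSCs, had group means of 8.59 to 10.55. The markers did not move as one, since 3 of the 15 rose (among them Acta2 by 2.83 and desmin by 1.96) and 6 fell (among them Colec11 at -2.71 and Rgs5 at -2.31) in Ctrl64h against Ctrl4h. The mean over 20 Kupffer cell and macrophage markers was 5.69 to 6.35 on the 14 arrays, and Clec4f, a Kupffer cell receptor, had group means of 5.24 to 5.68. In such bulk RNA, fewer cells of a type and less RNA per cell cannot be told apart. Below, a gene "rose" or "fell" where limma gave an adjusted p under 0.05 and a change of at least 2-fold, and was "higher" or "lower" where it passed that p alone. Of the members, 3 had a mean under 6 in every group, namely Itga6, Itgb6 and Fermt1. Of the 23410 tested probe sets, 14878 had a group mean of at least 6. Shares over all probe sets thus hold a larger part of low ones than the members do. Shares among the 14878 were counted only for VPA64h against Ctrl64h.

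Promoter sequence is shown first for 3 members on which the results turn. Itga8 encodes the α8 subunit of a receptor for RGD ligands such as nephronectin, and had the largest change of any member in the 7 comparisons made. Itga3 encodes the α3 subunit of a laminin receptor and was the only member that rose with VPA at 4 h. Vcl encodes vinculin, which couples talin and α-catenin to actin, and its window holds 3 kinds of motif searched for. The windows run from 250 bases before to 50 bases after the start that RefSeq annotates on build GRCm38.p6. They lie at chr2:12301895-12302194 on the minus strand for Itga8, chr11:95076665-95076964 on the minus strand for Itga3 and chr14:20929148-20929447 on the plus strand for Vcl. Capitals mark matches, on either strand, to the CArG box (bound by serum response factor), GGAATG (TEAD factors), TGANTCA (AP-1) and GGGCGG (Sp1 family).
Itga8: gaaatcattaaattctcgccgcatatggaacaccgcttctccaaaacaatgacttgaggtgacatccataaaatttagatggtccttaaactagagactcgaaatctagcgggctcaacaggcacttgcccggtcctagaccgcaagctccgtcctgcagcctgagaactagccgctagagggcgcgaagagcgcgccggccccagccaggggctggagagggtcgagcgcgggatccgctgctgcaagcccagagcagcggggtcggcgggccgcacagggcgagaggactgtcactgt
Itga3: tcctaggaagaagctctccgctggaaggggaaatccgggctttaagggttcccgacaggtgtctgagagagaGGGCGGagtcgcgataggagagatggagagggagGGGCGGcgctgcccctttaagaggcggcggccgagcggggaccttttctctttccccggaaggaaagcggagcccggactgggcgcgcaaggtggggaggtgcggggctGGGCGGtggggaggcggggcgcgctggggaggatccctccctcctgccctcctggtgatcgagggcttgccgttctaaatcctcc
Vcl: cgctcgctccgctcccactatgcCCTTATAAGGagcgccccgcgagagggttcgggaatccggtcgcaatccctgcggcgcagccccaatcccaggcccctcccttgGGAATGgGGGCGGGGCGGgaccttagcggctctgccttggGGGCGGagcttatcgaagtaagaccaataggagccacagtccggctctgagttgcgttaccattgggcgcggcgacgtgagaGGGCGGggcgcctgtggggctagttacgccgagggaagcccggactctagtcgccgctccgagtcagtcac
In the Vcl window the CArG box begins at position -227 from the start and GGAATG at -143, beside 4 copies of GGGCGG, a pair of which overlap. The printed Itga3 window holds 3 copies of GGGCGG. A 2nd Itga3 window in the table, at chr11:95069149-95069448 on the minus strand, holds 1 GGGCGG and 1 TGANTCA. The letters of none of the 4 motifs were found in the Itga8 window. A promoter window was found for 35 of the 46 members. A CArG box was found for 3 of the 35 (Fermt2, Itgb6 and Vcl), against 1.63% of all 32851 windows of the table. GGAATG was found for 7 members (14.7% of all windows), TGANTCA for 4 (7.81% of all windows) and GGGCGG for 24 (35.7% of all windows). Some members have more than 1 window, so shares of members and of windows are not on one footing. Of the 44 windows of members, 6.82% held a CArG box, 18.2% GGAATG, 9.09% TGANTCA and 61.4% GGGCGG.

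The first comparison asks how the adhesion genes moved through control culture. From 4 h to 64 h the members that rose were the adaptors Lpp and Lims2, the integrin subunits Itga1, Itgb5 and Itga3, and the actin-associated Pdlim5, while Itga5 and Tns3 fell. Thus 6 of 45 members rose and 2 fell in Ctrl64h against Ctrl4h, which is 17.8% of the members. Over all tested probe sets 10.4% were called, 6.68% as risen and 3.71% as fallen. By adjusted p alone 18 members were higher (25% of all probe sets) and 10 lower (31.6% of all probe sets), and the median log2 change was 0.14 over the members and -0.09 over all probe sets. Centred on 13 housekeeping genes, 6 members rose and 2 fell, with 15 higher and 10 lower by adjusted p. This scaling uses the median level of the 13 on each array, which is that of the middle gene. The 13 were not stable here, since Gusb (1.28) and Sdha (1.05) rose and Tfrc (-1.10) and Polr2a (-1.01) fell. By adjusted p 6 of them were higher and 4 lower. Centred on Gapdh, the qPCR reference of the study, 2 members rose and 7 fell, with 7 higher and 27 lower. Over all probe sets 525 rose and 3927 fell with Gapdh, against 1564 and 868 as deposited. The balance of the counts thus turned over the whole array and not only in the members. Markers of other cells were counted in this comparison too, beside the 31.6% lower and 25% higher over all probe sets. By adjusted p, 9 of 20 markers of sinusoidal endothelium were lower and 2 higher. Their means were 6.60 to 6.84 in Ctrl64h and 6.89 to 7.05 in Ctrl4h. Lower were 9 of 15 lymphocyte and neutrophil, 7 of 20 Kupffer cell and macrophage and 7 of 17 hepatocyte markers, with 0 higher. Of 15 cholangiocyte, mesothelial and portal fibroblast markers 7 were lower and 3 higher. The part of such cells in the member changes was not tested.

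Lims2 encodes PINCH2, a LIM-domain partner of integrin-linked kinase. Its log2 level was 8.78, 8.82 and 8.73 in Ctrl4h, 10.09 and 9.75 in Ctrl16h and 10.57, 10.77 and 10.58 in Ctrl64h. Every array of a later time lay above all arrays of the earlier one. The log2 change was 1.86 ± 0.09 (SE) in Ctrl64h against Ctrl4h (adjusted p = 2.63e-10, limma). Lims1, which encodes the related PINCH1, averaged 10.64 in Ctrl4h, 10.65 in Ctrl16h and 10.50 in Ctrl64h and did not pass the test.

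Lpp, a zyxin-like LIM protein of adhesions and stress fibres, reached its new level by 16 h. It measured 9.10, 8.78 and 9.04 in Ctrl4h, 10.97 and 10.43 in Ctrl16h and 10.81, 10.81 and 11.15 in Ctrl64h. The log2 change in Ctrl64h against Ctrl4h was 1.95 ± 0.17 (SE, adjusted p = 9.46e-08, limma). The arrays of 16 h and 64 h overlapped. A 2nd probe set of the gene rose by 1.43 ± 0.16, and a 3rd, with a mean level of 5.93, was at 0.14 ± 0.19 and did not pass.

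Among the α subunits, Itga1, the collagen-binding partner of Itgb1 that HSCs are known to carry, rose late. It measured 10.53, 10.29 and 10.29 in Ctrl4h, 10.20 and 10.06 in Ctrl16h and 11.77, 11.86 and 11.83 in Ctrl64h. The change in Ctrl64h against Ctrl4h was 1.45 ± 0.12 (SE, adjusted p = 4.51e-08, limma). Itga3 followed the same course, with 6.98, 6.75 and 7.13 in Ctrl4h, 6.96 and 7.14 in Ctrl16h and 8.05, 8.05 and 7.92 in Ctrl64h. Its change was 1.05 ± 0.11 (adjusted p = 7.47e-07, limma), and 0.95, under the 2-fold limit, without Ctrl4h replicate 2.

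Itga5, which pairs with Itgb1 as the classical fibronectin receptor, went the other way. It measured 10.05, 9.80 and 10.22 in Ctrl4h, 9.85 and 10.19 in Ctrl16h and 8.84, 8.41 and 8.85 in Ctrl64h. All arrays of 64 h lay below all earlier arrays, with a log2 change of -1.33 ± 0.14 in Ctrl64h against Ctrl4h (SE, adjusted p = 6.68e-07, limma). Tns3, a tensin that binds integrin β tails and actin, also fell late. It measured 11.28, 10.99 and 11.05 in Ctrl4h, 10.99 and 10.93 in Ctrl16h and 10.08, 9.89 and 10.00 in Ctrl64h, a change of -1.12 ± 0.10 (SE, adjusted p = 1.05e-07, limma).

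Itgb5 encodes a β subunit that pairs with αv and binds vitronectin and latent TGF-β. Its levels were 9.39, 9.57 and 9.67 in Ctrl4h, 9.99 and 9.87 in Ctrl16h and 10.68, 10.78 and 10.64 in Ctrl64h. Each time lay above the one before without overlap, and the change in Ctrl64h against Ctrl4h was 1.16 ± 0.09 (SE, adjusted p = 4.39e-08, limma). Pdlim5, a PDZ-LIM protein that binds α-actinin, measured 11.24, 11.06 and 11.05 in Ctrl4h, 11.25 and 11.19 in Ctrl16h and 12.15, 12.20 and 12.15 in Ctrl64h, and rose by 1.05 ± 0.09 in Ctrl64h against Ctrl4h (SE, adjusted p = 6.37e-08, limma). With arrays centred on Gapdh, Itga1 (0.89), Itga3 (0.50), Itgb5 (0.60) and Pdlim5 (0.49) stayed positive at an adjusted p under 0.05 and were under the 2-fold limit.

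Vinculin was higher by less than 2-fold. Vcl measured 11.02, 10.77 and 10.82 in Ctrl4h, 11.03 and 11.01 in Ctrl16h and 11.46, 11.53 and 11.59 in Ctrl64h. All 64 h arrays lay above the others, with a log2 change of 0.65 ± 0.09 in Ctrl64h against Ctrl4h (SE, adjusted p = 1.41e-05, limma). Centred on Gapdh it was 0.097 and did not pass. The scaffold paxillin (Pxn) measured 8.22, 8.01 and 8.17 in Ctrl4h, 8.43 and 8.48 in Ctrl16h and 8.10, 7.97 and 8.03 in Ctrl64h. Its 64 h and 4 h arrays overlapped, and the change of -0.10 between them did not pass.

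**Figure D1:**
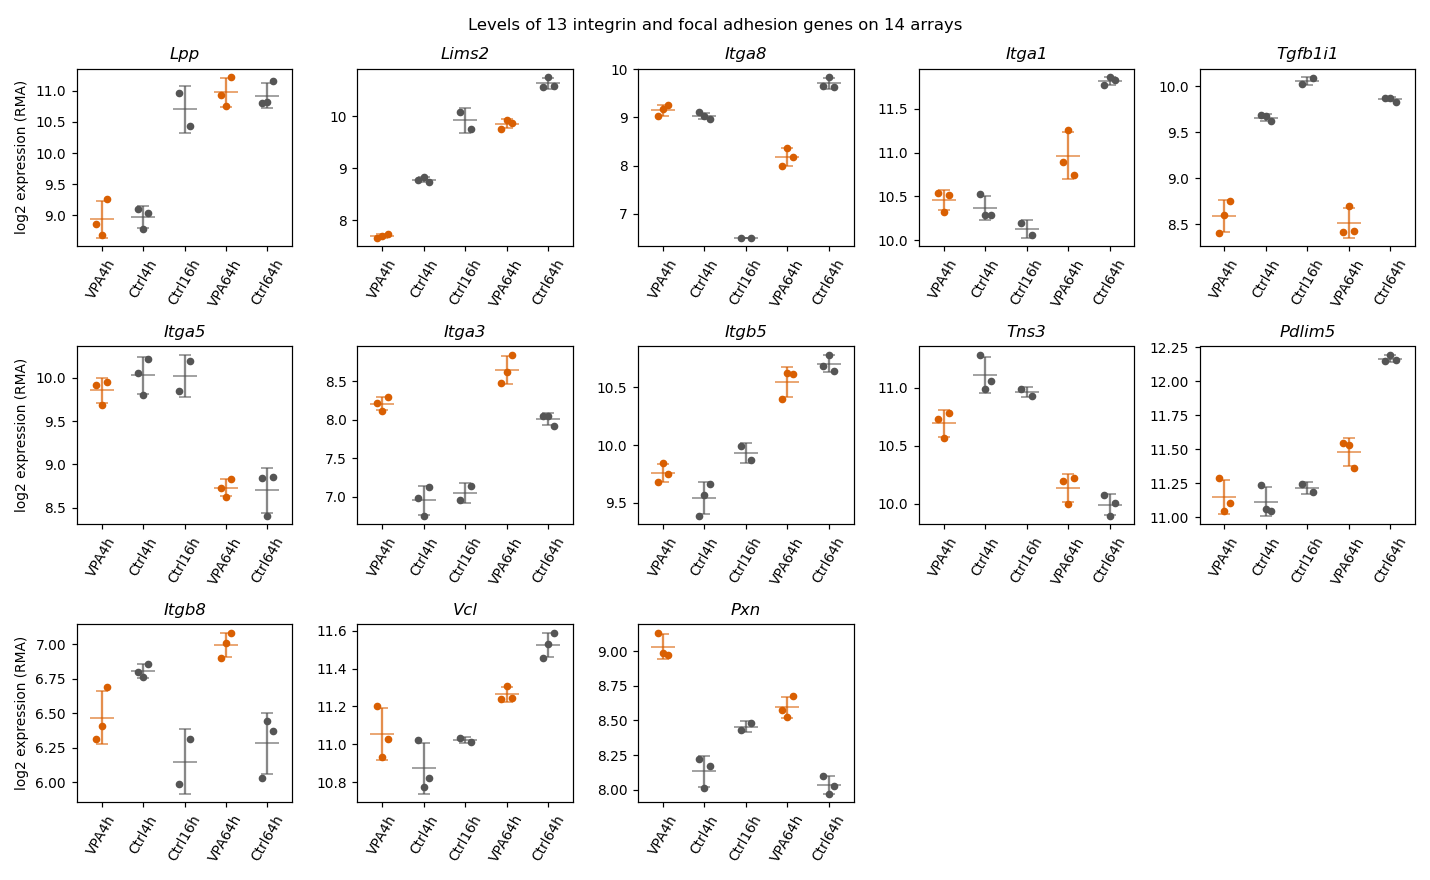
Log2 expression (vertical axes, a scale of its own in each panel) of the 11 members called between Ctrl64h and Ctrl4h, with VPA at either time or in the difference of the VPA effects, and of Vcl and Pxn, in the 5 groups. Points are arrays, and the dash and bar are the mean and SD (n = 3, and n = 2 for Ctrl16h). Itga8 had its lowest arrays in Ctrl16h (6.50 and 6.51), and Tgfb1i1 averaged 8.59 in VPA4h and 8.52 in VPA64h, below every control group.

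The second comparison splits this course at 16 h. In Ctrl16h against Ctrl4h, Lims2 and Lpp rose and Itga8 fell. These 3 members are 6.67% of the 45, against 1.91% of all probe sets called (0.705% risen and 1.21% fallen). Of 15 HSC markers 1 rose here (Acta2, 1.62) and 5 fell, among them Colec11 (-2.26), Rgs5 (-1.70) and Lrat (-1.64). By adjusted p, 7.32% of all probe sets were lower here. So were 5 of 20 markers of sinusoidal endothelium and 3 of 15 lymphocyte and neutrophil markers. The count was 2 of 20 for Kupffer cell and macrophage markers, and in each of these lists 0 were higher. The part of such cells in the member changes was not tested. In Ctrl64h against Ctrl16h, 4 members rose (Itga8, Itga1, Itga2 and Itga4) and Itga5 fell, which is 11.1% of the members, against 6.6% of all probe sets (4.52% risen and 2.08% fallen). Without Ctrl16h replicate 2 or Ctrl64h replicate 1, 2 members fell, and Itga5 was at -0.96 with arrays centred on housekeeping genes. Under that scaling 8 members rose and 0 fell, and with Gapdh 3 rose and 2 fell. Over all probe sets 2176 rose and 207 fell when centred on housekeeping genes, and 814 rose and 696 fell with Gapdh. In this comparison the macrophage genes Lyz2 (1.79) and Ctss (1.12) rose among 20 Kupffer cell and macrophage markers. By adjusted p, 5 of the 20 were higher and 2 lower, beside 19.2% and 23.9% of all probe sets. Of 20 markers of sinusoidal endothelium 3 were higher and 1 lower. Lower were 4 of 15 lymphocyte and neutrophil and 3 of 17 hepatocyte markers, with 0 higher. Of 15 cholangiocyte, mesothelial and portal fibroblast markers 3 were higher and 3 lower. The part of such cells in the member changes was not tested. Itga2 and Itga4 are outside the rule by which genes were named and are named here after their values were seen.

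Itga8 gave the widest excursion. It measured 9.10, 9.02 and 8.97 in Ctrl4h, 6.50 and 6.51 in Ctrl16h and 9.65, 9.85 and 9.63 in Ctrl64h. The arrays of the 3 times did not overlap. The log2 change was -2.53 ± 0.11 in Ctrl16h against Ctrl4h (SE, adjusted p = 1.98e-09, limma) and 3.20 ± 0.11 in Ctrl64h against Ctrl16h (adjusted p = 6.81e-11, limma). In Ctrl64h against Ctrl4h it was higher by 0.68 ± 0.10 (adjusted p = 3.43e-05, limma), and at 0.12, not past the test, with arrays centred on Gapdh. The 16 h group holds only 2 arrays, and no VPA group was collected at that time. The HSC marker Lrat also fell and then rose, at -1.64 and 2.07 in these 2 comparisons. Of the 15 HSC markers, 1 rose and 5 fell in the first of them, and 4 rose and 0 fell in the second.

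Itga2, another collagen-binding α subunit, dipped likewise, with 8.05, 7.66 and 7.46 in Ctrl4h, 6.81 and 6.81 in Ctrl16h and 8.15, 7.88 and 7.94 in Ctrl64h. Its change of -0.91 in Ctrl16h against Ctrl4h (adjusted p = 0.000265, limma) was under the 2-fold limit, and that of 1.18 in Ctrl64h against Ctrl16h was over it (adjusted p = 9.2e-06, limma). Itga4, the VCAM-1-binding α4 subunit, lay near the low end of the array at 5.46, 5.47 and 5.64 in Ctrl4h and 5.49 and 5.35 in Ctrl16h, and at 6.59, 6.25 and 6.66 in Ctrl64h. It rose by 1.08 in Ctrl64h against Ctrl16h (adjusted p = 3.49e-05, limma). Centred on Gapdh that change was 0.94.

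Smaller early changes were counted as well. Without the fold limit 12 members were higher in Ctrl16h against Ctrl4h (12.8% of all probe sets) and 6 lower (7.32% of all probe sets). The balance turned with the scaling, to 4 higher and 19 lower when centred on housekeeping genes and 4 higher and 25 lower when centred on Gapdh. The median change over all probe sets was then -0.39 and -0.43. Of the 12, 11 encode cytoplasmic proteins and the other is Itgb5. The 11 were Lims2, Lpp, the α-actinin Actn1 at 0.91 ± 0.11, α-parvin (Parva) at 0.71, Pdlim7 at 0.66, zyxin (Zyx) at 0.62, filamin A (Flna) at 0.53, Tgfb1i1 at 0.40, Ilk at 0.37, talin 1 (Tln1) at 0.35 and Pxn at 0.32. The 6 lower were Itga8, Itga2, Itgb8, Itgb3, Itga9 and Vasp, of which only Vasp is cytoplasmic. Actn1, Lims2, Lpp and Parva kept an adjusted p under 0.05 and their sign under every alternative run, as did Itga2 and Itga8 on the lower side. Itga9 lost it in 16 of 24 alternatives, among them the replicate number as a block (-0.27, adjusted p = 0.051, limma), and Vasp in 7. Tgfb1i1 (-0.020), Itgb5 (-0.032), Ilk (-0.048), Tln1 (-0.071) and Pxn (-0.10) had the opposite sign with arrays centred on Gapdh. Without Ctrl16h replicate 1 the counts were 7 higher and 2 lower, and Lims2 was at 0.97, under the 2-fold limit, as it was when centred on housekeeping genes (0.76) or Gapdh (0.72). Without Ctrl16h replicate 2 or without Ctrl4h replicate 1, 3 members were lower, and without Ctrl4h replicate 3, 2 were lower by at least 2-fold.

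Several of these early gains were not held. Actn1 measured 11.13, 10.83 and 11.07 in Ctrl4h, 11.88 and 11.96 in Ctrl16h and 11.47, 11.27 and 11.36 in Ctrl64h. Its change of -0.55 in Ctrl64h against Ctrl16h passed the test (adjusted p = 0.000723, limma), and its 64 h arrays lay between those of the earlier times. Centred on housekeeping genes that change was -0.19 and did not pass, and centred on Gapdh the change in Ctrl64h against Ctrl4h was -0.20. Zyx, a LIM protein of mature adhesions, measured 9.55, 9.59 and 9.57 in Ctrl4h, 10.17 and 10.21 in Ctrl16h and 9.86, 9.85 and 9.82 in Ctrl64h. Its change in Ctrl64h against Ctrl16h was -0.34 (adjusted p = 0.00202, limma), and 0.015 with arrays centred on housekeeping genes. In that comparison 12 members were higher (19.2% of all probe sets) and 12 lower (23.9% of all probe sets), against 18 and 3 when centred on housekeeping genes and 9 and 19 when centred on Gapdh.

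**Figure D2:**
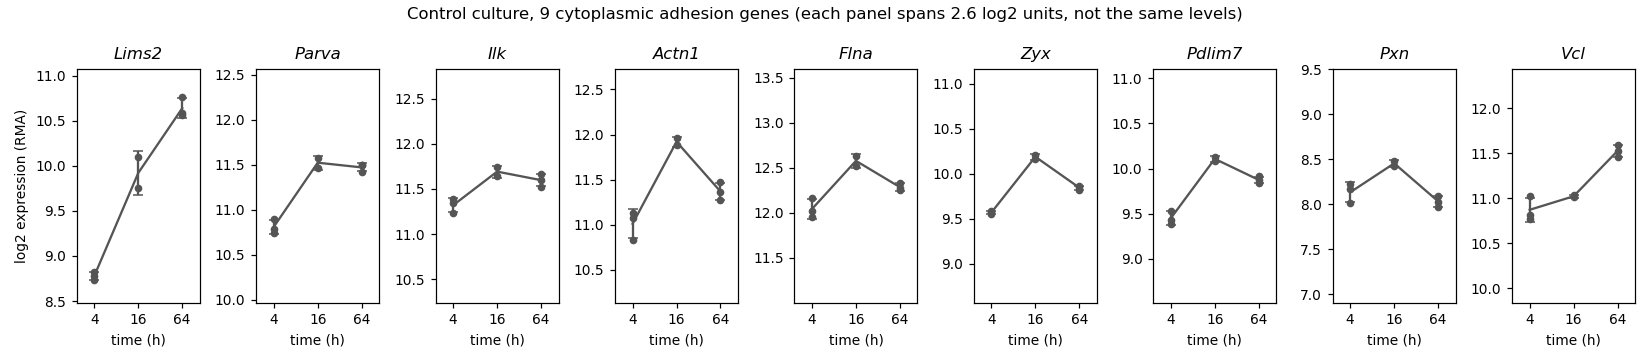
Log2 expression (vertical axes, each spanning 2.6 units) of 9 cytoplasmic adhesion genes in control culture at 4, 16 and 64 h (horizontal axes, not to scale). Points are arrays, lines join the means and bars are SD (n = 3, 2 and 3). Actn1 averaged 11.01, 11.92 and 11.37, highest at 16 h, while Lims2 averaged 8.78, 9.92 and 10.64 and was higher at each later time.

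The next comparisons ask what VPA did to these genes. At 4 h, 1 member rose and 2 fell in VPA4h against Ctrl4h. These 3 are 6.67% of the members, against 1.42% of all probe sets (0.867% risen and 0.555% fallen). Without the fold limit 3 members were higher (11.5% of all probe sets) and 9 lower (9.96% of all probe sets). These counts depended on the scaling. The 13 housekeeping genes themselves had changes of -0.48 to 0.37 with a median of -0.09, and their centre follows the middle gene of each array. Centred on housekeeping genes, 3 members rose and 0 fell, with 31 higher and 2 lower, and centred on Gapdh, 0 rose and 3 fell, with 2 higher and 28 lower. Over all probe sets 1272 rose and 11 fell when centred on housekeeping genes, and 45 rose and 519 fell with Gapdh. The median log2 change was -0.04 over the members and -0.03 over all probe sets.

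Itga3 measured 8.22, 8.11 and 8.29 in VPA4h, against 6.98, 6.75 and 7.13 in Ctrl4h. The arrays were far from overlapping, and the log2 change was 1.25 ± 0.11 (SE, adjusted p = 8.7e-07, limma). With arrays centred on Gapdh it was 0.92. Pxn, the paxillin scaffold, measured 9.13, 8.98 and 8.97 in VPA4h and 8.22, 8.01 and 8.17 in Ctrl4h. It was higher by 0.90 ± 0.08 (SE, adjusted p = 1.45e-06, limma), just under 2-fold. Itgb3, the β subunit of the vitronectin receptor, was at 0.60 (adjusted p = 0.0225, limma). Its arrays overlapped between the groups, while the differences between same-numbered arrays of VPA4h and Ctrl4h were 0.53 to 0.69.

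Tgfb1i1 encodes Hic-5, a LIM protein related to paxillin that is found in adhesions of contractile cells. It measured 8.41, 8.60 and 8.75 in VPA4h, against 9.69, 9.67 and 9.62 in Ctrl4h, a log2 change of -1.07 ± 0.10 (SE, adjusted p = 1.11e-06, limma). Paxillin and Hic-5, paralogues, thus lay on opposite sides of the control. Without VPA4h replicate 1 the change of Tgfb1i1 was -0.98, under the 2-fold limit, and centred on housekeeping genes it was -0.60.

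Lims2 measured 7.66, 7.69 and 7.73 in VPA4h, against 8.78, 8.82 and 8.73 in Ctrl4h. It fell, by a log2 change of -1.09 ± 0.09 (SE, adjusted p = 7.98e-07, limma), and was at -0.61 with arrays centred on housekeeping genes. Of the kinase and parvins, Ilk was lower by a log2 change of -0.43 (adjusted p = 0.000925, limma) and Parva of -0.47 (adjusted p = 0.000248, limma), while Parvb was at -0.012 and did not pass. Centred on housekeeping genes Ilk was at 0.047 and Parva at 0.011, so their sign at 4 h depended on that scaling. It follows the middle gene of each array, while the median change of the housekeeping genes was -0.09. Lims1 was at -0.19 and did not pass.

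At 64 h no member rose and 2 fell in VPA64h against Ctrl64h, Itga8 and Tgfb1i1, which is 4.44% of the members, against 2.14% of all probe sets (1% risen and 1.14% fallen). Smaller changes were frequent. By adjusted p alone 19 of 45 members (42.2%) were lower, against 11.2% of all probe sets, and 8 (17.8%) were higher, against 12.8% of all probe sets. Among probe sets with a group mean of at least 6 the shares were 15.6% lower and 17.9% higher. All 3 arrays of VPA64h lay below all 3 of Ctrl64h for 23 members (17.6% of all probe sets) and above them for 9 (19.4% of all probe sets). The median log2 change was -0.16 over the members and 0.00 over all probe sets.

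The count of 19 rested partly on single arrays. Without Ctrl64h replicate 1 it was 11, and with arrays centred on housekeeping genes it was also 11, beside 9 higher. Centred on Gapdh, 19 were lower and 5 higher. With the replicate number as a block on the arrays of these groups only, 13 were lower and 9 higher. Under every alternative run, 10 of the 19 stayed lower at an adjusted p under 0.05. These were the integrin subunits Itga1, Itga4, Itga8, Itga9 and Itgb6 and the cytoplasmic Lims2, Parva, Pdlim5, Pdlim7 and Tgfb1i1. Itgb6 lay near the low end of the array, with means of 4.26 in VPA64h and 4.77 in Ctrl64h. It was not part of the run limited to probe sets with a group mean of at least 6. On the higher side 5 of 8 did so, namely Itga3, Itga7, Itgb3, Itgb8 and Pxn.

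Itga8 measured 7.99, 8.37 and 8.17 in VPA64h, against 9.65, 9.85 and 9.63 in Ctrl64h. The log2 change was -1.53 ± 0.10 (SE, adjusted p = 5.7e-08, limma), and every VPA64h array also lay below the Ctrl4h arrays, which were 9.10, 9.02 and 8.97. At 4 h it had measured 9.03, 9.17 and 9.25 in VPA4h, a change of 0.12 from Ctrl4h that did not pass.

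Tgfb1i1 measured 8.42, 8.70 and 8.42 in VPA64h, against 9.87, 9.87 and 9.83 in Ctrl64h. The log2 change was -1.34 ± 0.10 (SE, adjusted p = 1.44e-07, limma), and it was the only member that fell with VPA at both times. Lims2 was lower at 64 h as well, with 9.76, 9.93 and 9.87 in VPA64h, against 10.57, 10.77 and 10.58 in Ctrl64h. That is a change of -0.78 ± 0.09 (SE, adjusted p = 2.01e-05, limma). Its VPA64h arrays lay above all Ctrl4h arrays, so Lims2 was at an intermediate level.

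Itga1 was likewise intermediate, with 10.90, 11.26 and 10.74 in VPA64h, against 11.77, 11.86 and 11.83 in Ctrl64h and 10.53, 10.29 and 10.29 in Ctrl4h. It was lower than in Ctrl64h by a log2 change of -0.85 ± 0.12 (SE, adjusted p = 7.78e-05, limma). Pdlim5 measured 11.55, 11.53 and 11.36 in VPA64h, against 12.15, 12.20 and 12.15 in Ctrl64h, a change of -0.69 ± 0.09 (SE, adjusted p = 3.6e-05, limma). The α9 subunit Itga9, which binds tenascin and osteopontin, measured 9.52, 9.51 and 9.40 in VPA64h, against 10.25, 10.11 and 10.07 in Ctrl64h. Its change was -0.67 (adjusted p = 1.53e-05, limma). Unlike Itga1 and Pdlim5 it was already lower in Ctrl64h than in Ctrl4h, with a change of -0.74, so VPA64h was the group farthest from Ctrl4h.

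Other members called in control culture did not pass the test between VPA64h and Ctrl64h. Lpp measured 10.94, 10.76 and 11.23 in VPA64h and 10.81, 10.81 and 11.15 in Ctrl64h, with a log2 change of 0.05 ± 0.17 (SE). Itgb5 measured 10.40, 10.62 and 10.62 in VPA64h and 10.68, 10.78 and 10.64 in Ctrl64h, a change of -0.16 with arrays that did not overlap. Itga5, which had fallen in culture, measured 8.73, 8.63 and 8.83 in VPA64h and 8.84, 8.41 and 8.85 in Ctrl64h, with overlapping arrays and a change of 0.03. Tns3 measured 10.19, 9.99 and 10.22 in VPA64h and 10.08, 9.89 and 10.00 in Ctrl64h, also overlapping, with a change of 0.14.

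On the higher side, Itga3 measured 8.48, 8.61 and 8.84 in VPA64h, against 8.05, 8.05 and 7.92 in Ctrl64h. The change was 0.64 ± 0.11 (SE, adjusted p = 0.000526, limma), for a gene that had also risen in control culture. Pxn measured 8.58, 8.53 and 8.68 in VPA64h, against 8.10, 7.97 and 8.03 in Ctrl64h, a change of 0.56 ± 0.08 (SE, adjusted p = 0.000157, limma). Itgb8, whose product pairs with αv and can activate latent TGF-β, measured 6.90, 7.01 and 7.08 in VPA64h, against 6.03, 6.44 and 6.37 in Ctrl64h. It was higher by 0.71 ± 0.12 (SE, adjusted p = 0.000509, limma). Itga7, a laminin-binding α subunit best known from muscle, measured 6.53, 6.65 and 7.13 in VPA64h, against 6.24, 5.88 and 5.85 in Ctrl64h. Itgb3 (0.71), Flnc (0.61), Itgav (0.45) and Parvb (0.37) were the others that were higher.

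Vcl measured 11.24, 11.31 and 11.25 in VPA64h, against 11.46, 11.53 and 11.59 in Ctrl64h. The arrays did not overlap, and the log2 change of -0.26 ± 0.09 was just past the test (SE, adjusted p = 0.0451, limma). Actn1 (-0.30), Actn4 (-0.25), Tln2 (-0.28), Vasp (-0.32), Ilk (-0.26), Zyx (-0.24) and Tns1 (-0.31) were lower by like amounts. These 8, and Itgb2, each lost the adjusted p under 0.05 when some single array was left out. Vcl (adjusted p = 0.0703), Actn4, Tln2, Vasp, Ilk and Zyx also lost it with the replicate block on these groups alone (limma). For Tns1, all 6 probe sets of the gene were at negative changes, and 5 of them passed. Itgb2, the β subunit of leukocyte integrins, was at -0.57 (adjusted p = 0.031, limma), and the mean over 20 Kupffer cell and macrophage markers was 5.69 to 6.04 in VPA64h and 5.86 to 6.22 in Ctrl64h. Of those markers 4 were lower (11.2% of all probe sets) and 0 higher, and their part in the Itgb2 value was not tested.

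Markers of sinusoidal endothelium also differed between these groups. Their mean over 20 genes was 6.49 to 6.50 in VPA64h and 6.60 to 6.84 in Ctrl64h. By adjusted p, 8 were lower and 3 higher, beside 11.2% and 12.8% of all probe sets. The part of such cells in the member changes at 64 h was not tested. At 4 h the same mean was 6.76 to 7.03 in VPA4h and 6.89 to 7.05 in Ctrl4h, with 1 lower and 1 higher.

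**Figure D3:**
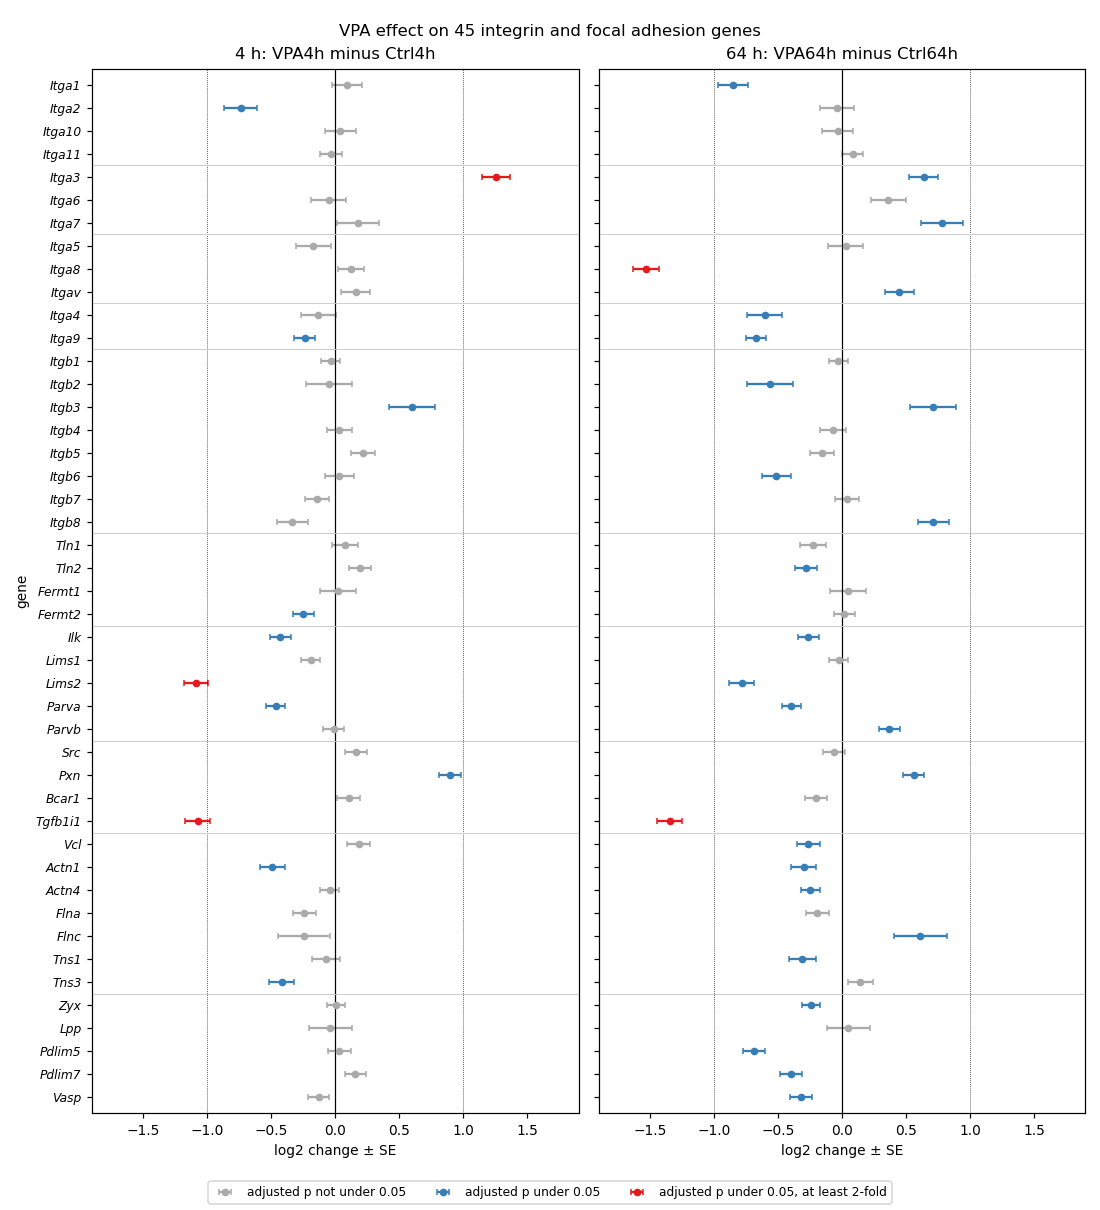
Log2 change with VPA (horizontal axes, ± SE) of the 45 measured members (vertical axis, grouped by role) at 4 h and at 64 h. Colours give the outcome of the test, and dotted lines mark 2-fold. Tgfb1i1 is the only gene past the 2-fold limit in both panels, at -1.07 and -1.34.

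Grouped by role, the VPA changes at 64 h had different signs. The groups hold 2 to 8 members and are counted by adjusted p alone, where 11.2% of all probe sets were lower and 12.8% higher. In the zyxin family, PDZ-LIM and Vasp group 4 of 5 were lower and 0 higher, and among the 7 actin linkers 4 were lower and 1 higher. In the group of ILK, PINCH and parvins 3 of 5 were lower and 1, Parvb, was higher. Both α4 and α9 were lower. Of the 3 laminin-binding α subunits 2 were higher and 0 lower, and the 8 β subunits split into 2 higher and 2 lower. Without Ctrl64h replicate 1, 0 of the 7 actin linkers were lower or higher by limma, 2 of the 5 in the zyxin group were lower (Pdlim5 and Pdlim7), and in the group of ILK, PINCH and parvins 2 were lower. Itgb1, the common partner of most of these α subunits, averaged 12.17 in VPA64h and 12.19 in Ctrl64h and did not pass.

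The difference of the VPA effects at 64 h and 4 h was tested directly. It was called for Itga8 (-1.65 ± 0.14, SE, adjusted p = 2.86e-06, limma) and Itgb8 (1.05 ± 0.17, SE, adjusted p = 0.000607, limma). These 2 are 4.44% of the members, against 2.59% of all probe sets (0.893% higher and 1.7% lower at 64 h). Itgb8 had measured 6.31, 6.41 and 6.69 in VPA4h, against 6.80, 6.76 and 6.86 in Ctrl4h, a change of -0.34 that did not pass although the arrays did not overlap. It passed with the replicate block on these groups alone (adjusted p = 0.028, limma). Its difference was 0.97 without VPA4h replicate 1, 0.92 without Ctrl64h replicate 1 and 0.62 with arrays centred on housekeeping genes, all under the 2-fold limit. A further count, by adjusted p, gave 9 members with a lower effect at 64 h (8.33% of all probe sets), among them Itga1 (-0.94), Pdlim5 (-0.72) and Itga3 (-0.62), and 4 with a higher one (7.54% of all probe sets). Centred on housekeeping genes these were 23 and 1, and centred on Gapdh 3 and 8. Leaving out single arrays gave 0 to 2 members with a higher and 1 to 2 with a lower effect past 2-fold. The arrays whose omission moved these counts were Ctrl4h replicates 1 and 2, VPA4h replicates 1 and 2, Ctrl64h replicate 1 and VPA64h replicate 2. For Tgfb1i1 and Pxn the difference did not pass.

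The VPA groups were also compared with each other. In VPA64h against VPA4h, Lims2, Lpp and Flnc rose and Itga9, Itga5 and Vasp fell, which is 13.3% of the members, against 7.55% of all probe sets (5.26% risen and 2.29% fallen). Flnc, Itga9 and Vasp are outside the naming rule and are named after their values were seen. Lims2 rose by 2.16 ± 0.09 (SE, adjusted p = 1.15e-10, limma) and Lpp by 2.04 ± 0.17 (SE, adjusted p = 8.22e-08, limma). Flnc, a filamin of muscle, rose by 1.11 ± 0.21 (SE, adjusted p = 0.000332, limma), with 0.93 without VPA4h replicate 2, 0.99 without VPA64h replicate 1, 0.65 when centred on housekeeping genes and 0.76 when centred on Gapdh, all under the 2-fold limit. Vasp, which promotes actin filament growth at adhesions, fell by 1.12 ± 0.08 (SE, adjusted p = 2.4e-08, limma). Without the fold limit 18 members were higher (23.2% of all probe sets) and 11 lower (27.1% of all probe sets), against 6 and 25 when centred on housekeeping genes and 6 and 23 when centred on Gapdh. This comparison shares its arrays with the VPA comparisons at each time.

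**Figure D4:**
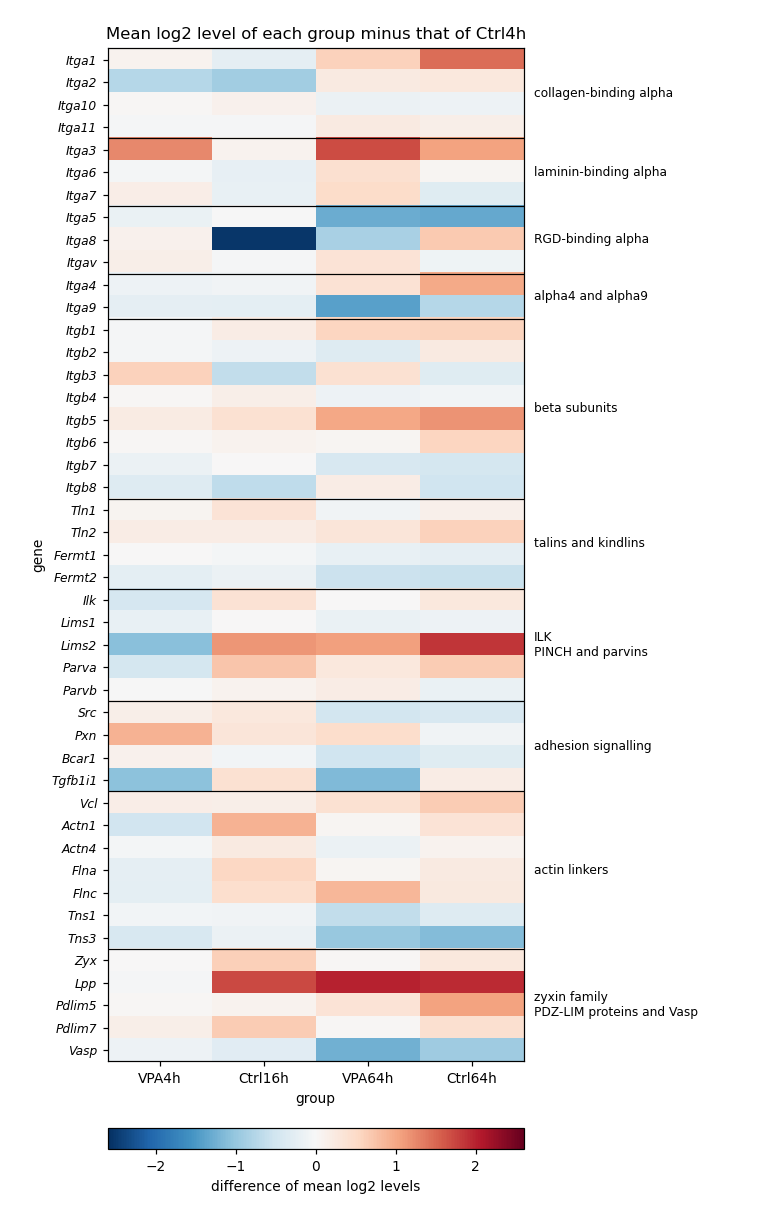
Mean log2 level of each group minus that of Ctrl4h (colour, in log2 units) for the 45 measured members (rows, grouped by role) in VPA4h, Ctrl16h, VPA64h and Ctrl64h (columns). Itga8 is deep blue only in Ctrl16h (-2.53), and Lims2 is blue in VPA4h (-1.09) and red in the other 3 columns.

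Genes around the members were described from lists chosen beside them. Of 29 measured integrin ligands other than collagens, 3 rose and 3 fell in Ctrl64h against Ctrl4h, beside 6.68% and 3.71% of all probe sets. The basement membrane protein Nid2 rose by 3.35 on the log2 scale, while the counter-receptor Vcam1 (-2.65), the matrix protein Tgfbi (-2.35) and tenascin X (Tnxb, -1.35) fell. With VPA at 64 h, laminin α5 (Lama5, 1.11) and thrombospondin 2 (Thbs2, 1.03) rose and the elastic fibre protein Emilin1 (-1.47) fell, 3 of 29 beside 2.14% of all probe sets, and at 4 h 0 of the 29 were called by limma, with 4 higher and 1 lower by adjusted p alone. The mean level of the list lay between 8.35 and 8.38 in VPA64h and between 8.33 and 8.38 in Ctrl64h. Calls on the list genes were not recomputed under the alternatives.

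Of 55 other measured adhesion and actin-linked proteins, 7 rose and 1 fell in Ctrl64h against Ctrl4h, again beside 6.68% and 3.71% of all probe sets. They include the LIM proteins Ajuba (2.27), Pdlim2 (1.64) and Fhl1 (1.37) and the PINCH-binding Rsu1 (1.28). Ajuba rose with VPA at 4 h (1.02), and the actin-binding Nexn fell (-1.09). At 64 h Pdlim2 fell with VPA (-1.25), the only one of the 55 called, where 2.14% of all probe sets were. The difference of the VPA effects was called for Ajuba (-1.44), Pdlim2 (-1.38), Sorbs3 (-1.07) and the caveolae protein Cav1 (1.19). Of 6 integrin subunits of leukocytes and platelets, Itga2b fell in Ctrl64h against Ctrl4h (-1.44), where 10.4% of all probe sets were called. By adjusted p alone 2 of the 6 were higher and 3 lower there. With VPA at 64 h 0 were called by limma, beside 2.14% of all probe sets, with 1 higher and 0 lower by adjusted p.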

How the data were processed

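RNA of 14 HSC cultures was measured with 1 array each. The authors deposited log2 expression values from RMA, whose quantile step gives all arrays the same distribution, so a change shared by most genes does not show. The study's methods name GeneSpring GX and the submitters' processing notes RMA and Affymetrix Expression Console, without versions, and the genome build is not given in the sources used here. Of 35557 probe sets, 23410 with at least 1 gene symbol were tested. Members were taken from the 21789 with exactly 1 symbol, and per gene the probe set of highest mean was used (43 of 45 have only 1). Probe intensities of different genes are not on a common scale, so levels were compared only within a gene. Arrays give no counts, and their number limits the precision.

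Group means were fitted in 1 limma model (version 3.58.1, R 4.3.3, 9 residual and 6.52 prior degrees of freedom), with 7 two-sided comparisons and Benjamini-Hochberg adjustment over the tested probe sets. On simulated Ctrl64h against Ctrl4h data of 23410 probe sets, 78% of 1.5-fold changes had an adjusted p under 0.05 and 100% of 2-fold changes, with 7 false calls. Members named by rule with values on every array are those called in Ctrl64h against Ctrl4h, with VPA at either time or in the difference of the VPA effects, plus Vcl and Pxn. Array values of Itga2, Itga4, Itga7, Itga9, Actn1 and Zyx are also given for some groups, outside this rule and after their values were seen. Of each other list up to 4 called genes of largest change are named. Same-numbered arrays deviated together in both pairs of groups compared for VPA. There r was 0.14 to 0.28 for VPA4h and Ctrl4h and 0.16 to 0.17 for VPA64h and Ctrl64h, with 3 pairs each. Such pairing is read from the data and not the labels. The main fit has no replicate block, so its VPA tests and counts are unpaired. The block was run as an alternative only. For Ctrl4h and Ctrl64h r was 0.02 to 0.11, with all 3 pairs positive, and for VPA4h and VPA64h it was -0.01 to 0.23. With Ctrl16h it was -0.14 to -0.07 (Ctrl64h) and -0.08 to -0.04 (Ctrl4h), 2 pairs each. Over all groups 13 of 26 pairs were over 0.1. The members and lists were chosen with earlier results of these data known. Promoter windows are RefSeq's (GRCm38.p6).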

Additional observations from a re-analysis of the deposited data

Results flagged for a closer look

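The VPA effect of Itga8 differed between the times, by the test of that difference itself. The log2 change with VPA was -1.53 at 64 h and 0.12 at 4 h, and the effect at 64 h minus that at 4 h was -1.65. All 3 arrays of VPA64h lay below all 3 of Ctrl64h, while the arrays of VPA4h and Ctrl4h overlapped. The VPA effect of Itgb8 also differed between the times, at 0.71 at 64 h and -0.34 at 4 h, where it did not pass without the replicate block, a difference of 1.05. No group had more than 3 arrays, so single arrays were not screened as outliers.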

How the results depend on the processing

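Of 151 member changes at an adjusted p under 0.05, only the 2 scalings to reference genes turned any sign. Centring arrays on 13 housekeeping genes moved the median change of all probe sets to -0.39 in Ctrl16h against Ctrl4h, 0.28 in Ctrl64h against Ctrl16h, -0.11 in Ctrl64h against Ctrl4h, 0.45 for VPA at 4 h, 0.05 for VPA at 64 h, -0.53 in VPA64h against VPA4h and -0.41 in the difference of the VPA effects. Centring on Gapdh, through 1 of 25 probe sets that carry its symbol, gave medians of -0.43, -0.21, -0.65, -0.36, -0.12, -0.43 and 0.23 in the same order. With housekeeping genes, 45 of all probe sets rose and 752 fell (Ctrl16h against Ctrl4h), 431 and 2013 (VPA64h against VPA4h), and 37 and 1343 (difference). With Gapdh these were 39 and 842 (Ctrl16h against Ctrl4h) and 506 and 220 (difference). Both scalings rest on few genes. The housekeeping centre is the level of the middle gene on each array, so it does not follow the 13 genes as a set. Their median change was 0.15 in Ctrl16h against Ctrl4h and -0.09 with VPA at 4 h. Among them Tfrc (-1.48) and Polr2a (-1.25) fell in Ctrl64h against Ctrl16h, and Gusb (-1.06) fell with VPA at 64 h. Why the reference genes changed was not tested. In VPA64h against Ctrl64h neither scaling turned a sign. Counts of members without the 2-fold limit, and the values of members outside the naming rule, were run after the data were seen.

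Centred on housekeeping genes, the members past both limits were 1 risen and 4 fallen (Ctrl16h against Ctrl4h), 8 and 0 (Ctrl64h against Ctrl16h), 3 and 0 (VPA at 4 h), 8 fallen (VPA64h against VPA4h), and 0 and 4 (difference of the VPA effects). Centred on Gapdh they were 1 and 4 (Ctrl16h against Ctrl4h), 2 fallen (Ctrl64h against Ctrl16h), 2 and 7 (Ctrl64h against Ctrl4h), 0 risen (VPA at 4 h) and 2 higher (difference). By adjusted p alone, housekeeping centring gave 4 higher and 19 lower (Ctrl16h against Ctrl4h), 3 lower (Ctrl64h against Ctrl16h), 31 higher and 2 lower (VPA at 4 h), 11 lower (VPA at 64 h), 6 and 25 (VPA64h against VPA4h) and 1 and 23 (difference). Gapdh centring gave 4 and 25, 19 lower, 7 and 27 (Ctrl64h against Ctrl4h), 28 lower (VPA at 4 h), 5 higher (VPA at 64 h), 6 and 23 (VPA64h against VPA4h) and 8 and 3 (difference). Without a fold limit the counts were 12 and 6, 12 and 12, 18 and 10, 3 and 9, 8 and 19, 18 and 11, and 4 and 9 in the order above. The methods' one-way test without moderation, which asks only whether any of the 5 groups differ, gave 23 and 15 (Ctrl16h against Ctrl4h), 22 lower (Ctrl64h against Ctrl16h), 15 and 23 (VPA at 4 h) and 13 higher (VPA at 64 h). With all probe sets tested, 3 were lower in Ctrl16h against Ctrl4h.

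With housekeeping centring the sign turned for Tln1 (-0.029), Ilk (-0.0058) and Pxn (-0.058) in Ctrl16h against Ctrl4h, for Parvb (0.090), Flna (0.066) and Zyx (0.015) in Ctrl64h against Ctrl16h, for Itga9 (0.24), Fermt2 (0.23), Ilk (0.047), Parva (0.011) and Tns3 (0.059) in VPA4h against Ctrl4h, for Itga11 (-0.19), Itga3 (-0.016), Ilk (-0.0091), Parvb (-0.24), Flna (-0.16) and Pdlim5 (-0.13) in VPA64h against VPA4h, and for Parvb (-0.051) in the difference. With Gapdh it turned for Itgb5 (-0.032), Tln1 (-0.071), Ilk (-0.048), Pxn (-0.10) and Tgfb1i1 (-0.020) in Ctrl16h against Ctrl4h, for Ilk (-0.28), Actn1 (-0.20), Flna (-0.31), Zyx (-0.28) and Pdlim7 (-0.13) in Ctrl64h against Ctrl4h, and for Itga11 (-0.087), Parvb (-0.14), Flna (-0.055) and Pdlim5 (-0.020) in VPA64h against VPA4h.

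Leaving out each array gave 1 to 2 risen and 1 to 2 fallen members (Ctrl16h against Ctrl4h), 4 to 5 and 1 to 2 (Ctrl64h against Ctrl16h), 5 to 7 and 2 (Ctrl64h against Ctrl4h), 1 and 1 to 2 (VPA at 4 h), 0 and 2 (VPA at 64 h), 2 to 4 and 3 to 4 (VPA64h against VPA4h) and 0 to 2 and 1 to 2 (difference). By adjusted p alone the ranges were 7 to 12 higher and 2 to 6 lower, 11 to 12 and 10 to 13, 17 to 19 and 9 to 12, 2 to 3 and 7 to 10, 7 to 9 and 11 to 19, 15 to 19 and 10 to 11, and 3 to 5 and 7 to 10, in that order. With the replicate number as a block over all groups, the counts of members called were the same 3, 5, 8, 3, 2, 6 and 2, and all were shared. By adjusted p alone the block lost Itga9 in Ctrl16h against Ctrl4h and no other call, and gained 4 members in Ctrl64h against Ctrl16h, 2 with VPA at 4 h (Itgb8 and Flna) and 1 each in the other control comparisons and the difference. The block on the arrays of the compared groups only, added after the data were seen, kept the calls past 2-fold with VPA and gave 3 higher and 8 lower at 4 h and 9 and 13 at 64 h.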
